A study of Mus musculus with 6 samples.

Results

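The genes described here build the contractile apparatus of striated muscle outside the myosin heavy chains: the thin filament, the myosin light chains and myosin-binding proteins, titin and the M-band, the Z-disc, the factors that help sarcomeres assemble, and 3 proteins of muscle energy and oxygen supply. They were chosen by name, and all 50 of the 50 named genes had a row in the deposited table of 27366 features. The RNA came from mouse satellite cells, which repair skeletal muscle, at day 4 of growth culture with FBS and FGF, a condition that favours division over fusion. The labels give 3 libraries of genotype control and 3 of genotype ko (Islr-Knockout), numbered 1 to 3 in each group, from the same culture condition and day. The series' own design text says that cells were sorted by flow cytometry for presence or absence of Islr, and the sources used here give neither strain, sex and age nor the deleted part of Islr and what drives its deletion. Whether libraries of 1 group stem from different mice or dishes is not stated, and the p-values below rest on the spread between the libraries alone, which may be technical.

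Islr, the targeted gene, did not follow the labels in every library. Its level was 181 scaled reads in the library labelled control 1, 12.8 in control 2 and 1579 in control 3, against 257 in the library labelled knockout 1, 7.4 in knockout 2 and 10.9 in knockout 3. A scaled read is a read count divided by the size factor of its library, 1 number per library that evens out depth. Islr was thus higher in the library labelled knockout 1 than in those labelled control 1 and control 2, and its log2 fold change was -2.43 (SE 2.15, limma adjusted p = 1.0). For this reason every direction below is between libraries as labelled. The column of control 1 carries a name in which 2 digits are exchanged against its label. In the rest of the text, 3 values in a row are those of numbers 1, 2 and 3, first of the libraries labelled control and then of those labelled knockout. Library totals ran from 16456917 to 20531276 reads.

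A sarcomere is the repeating unit of the myofibril. Actin thin filaments are anchored in the Z-disc and carry tropomyosin and the troponin complex, in which troponin C binds calcium, troponin I inhibits and troponin T ties the complex to tropomyosin. Myosin thick filaments, with their essential and regulatory light chains, are held by titin and cross-linked at the M-band. Most of these proteins have several genes: embryonic and slow-fibre muscle uses certain forms, some of which the heart also uses, and adult fast fibres use others. Satellite cells express little of most genes of this set until they leave the cell cycle under Myog. Young myotubes first make the embryonic and slow forms beside the skeletal fast ones.

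The promoters of 5 of these genes are shown. Transcripts of Acta1, Actc1, Mylpf and Tnnc1 differed by 97.9-fold to 211-fold between their lowest and highest library, and other genes of the set differed as much. The window of Klhl41 held a motif of each of the factor families MyoD and MEF2. Each window is the 250 bases before the RefSeq transcription start on GRCm38.p6: chr8:123894776-123895025 (minus strand) for Acta1, chr2:114052876-114053125 (minus strand) for Actc1, chr7:127211358-127211607 (plus strand) for Mylpf, chr14:31208062-31208311 (plus strand) for Tnnc1 and chr2:69669870-69670119 (plus strand) for Klhl41. The windows of Mylpf and Actc1 lie inside the spans that the table gives for these genes. All are written 5′ to 3′ on the gene's strand. Capitals mark CAGCTG, the E-box form preferred by MyoD and myogenin, the MEF2 motif and the CArG box bound by serum response factor.
Acta1: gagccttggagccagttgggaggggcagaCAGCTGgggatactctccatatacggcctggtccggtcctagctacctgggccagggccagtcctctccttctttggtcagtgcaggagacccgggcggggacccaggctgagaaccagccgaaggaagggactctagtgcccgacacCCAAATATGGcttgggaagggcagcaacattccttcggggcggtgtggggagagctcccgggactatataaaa
Actc1: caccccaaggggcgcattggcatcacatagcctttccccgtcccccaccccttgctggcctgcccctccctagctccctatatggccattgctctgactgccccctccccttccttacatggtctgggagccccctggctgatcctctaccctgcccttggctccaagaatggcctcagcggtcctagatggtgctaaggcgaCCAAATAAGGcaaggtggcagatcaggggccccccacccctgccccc
Mylpf: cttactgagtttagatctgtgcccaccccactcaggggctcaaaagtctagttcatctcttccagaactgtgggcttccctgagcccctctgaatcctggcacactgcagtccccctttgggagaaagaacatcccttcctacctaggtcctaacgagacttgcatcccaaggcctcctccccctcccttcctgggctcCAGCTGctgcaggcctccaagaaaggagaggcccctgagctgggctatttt
Tnnc1: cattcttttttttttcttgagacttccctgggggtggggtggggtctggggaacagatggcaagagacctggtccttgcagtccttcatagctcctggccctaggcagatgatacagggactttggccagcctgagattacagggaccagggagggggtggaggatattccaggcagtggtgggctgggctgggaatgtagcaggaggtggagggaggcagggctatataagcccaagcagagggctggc
Klhl41: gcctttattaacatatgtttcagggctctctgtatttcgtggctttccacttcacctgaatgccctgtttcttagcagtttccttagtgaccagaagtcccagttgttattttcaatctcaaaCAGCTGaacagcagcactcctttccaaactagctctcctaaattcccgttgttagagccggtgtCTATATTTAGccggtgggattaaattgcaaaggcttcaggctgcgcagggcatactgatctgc
The Acta1 window held 1 CAGCTG and 1 CArG box, Actc1 held 1 CArG box, Mylpf held 1 CAGCTG, Klhl41 held 1 CAGCTG and 1 MEF2 motif, and Tnnc1 held none of the 3. RefSeq's table had 49 promoters for 38 of the 50 genes. On both strands, CAGCTG was found in 20 of those 49 (40.8%) against 13% of all 32851 promoters of the same length. The more general E-box CANNTG, which includes it, was in 83.7% against 66.2%, and the form CACCTG in 28.6% against 17.2%. A CArG box was in 14.3% against 1.47%, a MEF2 motif in 10.2% against 1.69%, and the TATA sequence TATAAA in 12.2% against 12.4%. These are matches of letters in a window and say nothing about binding.

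The 50 genes together took 4.16% of all reads in the library labelled control 1, 0.422% in control 2 and 2.61% in control 3. Under the knockout label they took 4.21%, 0.57% and 0.898%. Both libraries of number 1 and the library labelled control 3 were thus high, both libraries of number 2 and the library labelled knockout 3 were low, and the groups overlapped. In these bulk libraries, fewer differentiating cells and less RNA per cell cannot be told apart. Levels per length followed the same order: by the authors' FPKM (a level per length of transcript and per depth), 22, 4 and 19 of the 50 genes reached 100 under the control label, and 26, 7 and 14 did under the knockout label. Myog, the regulator that starts terminal differentiation, had 43370, 417 and 43261 scaled reads under the control label and 37228, 1998 and 5737 under the knockout label, the same order of high and low libraries. Myod1, which marks activated satellite cells, was between 18888 and 33818 scaled reads in all 6, and Pax7, which marks stem cells and early progenitors, between 1233 and 2729.

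**Figure D1:**
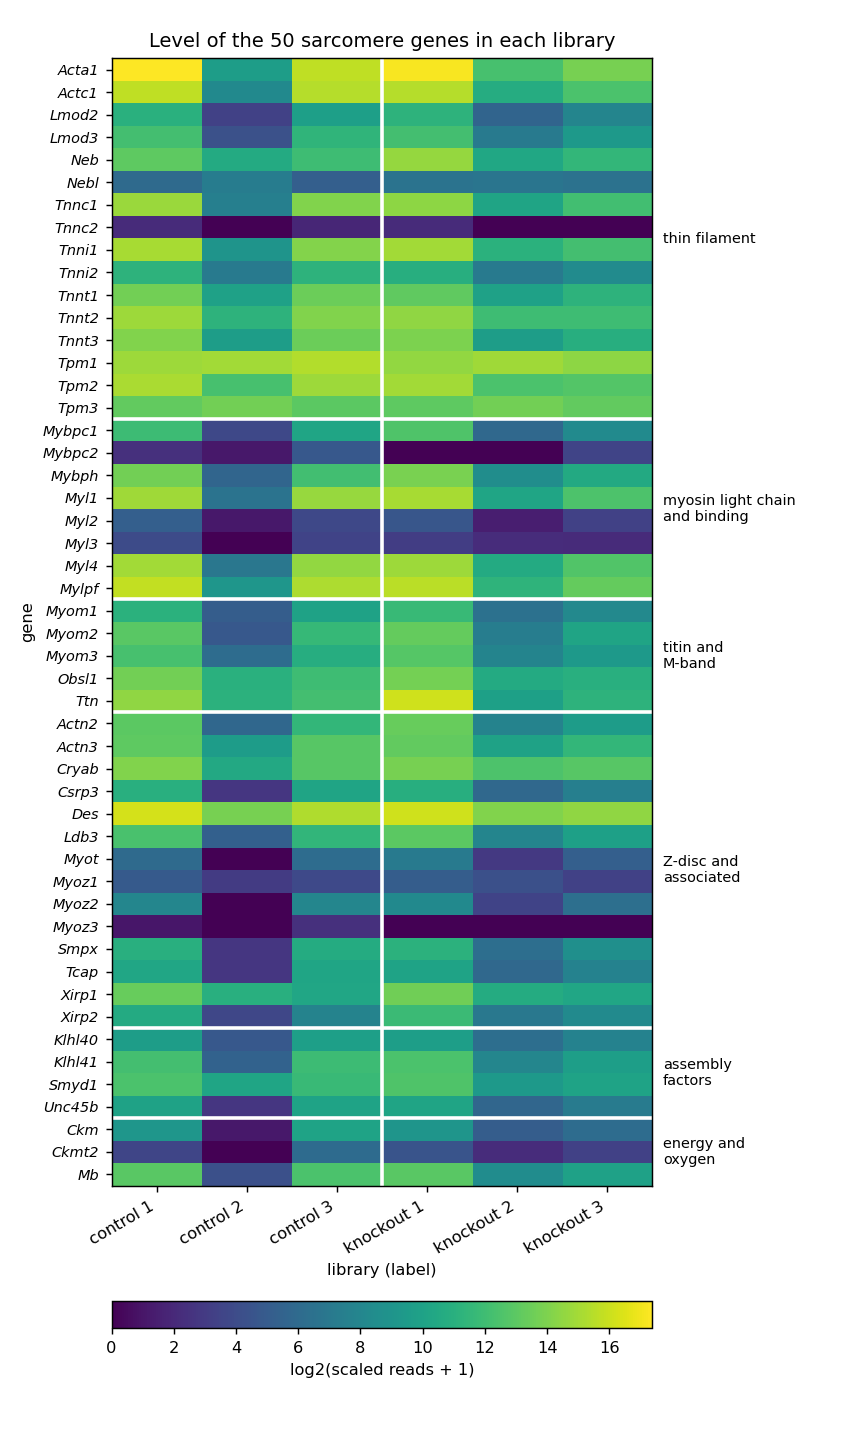
Level of each of the 50 genes (rows, grouped by role) in the 6 libraries (columns, by label) as log2(scaled reads + 1) on a colour scale. In 41 of the 50 genes the 3 highest libraries are those labelled control 1, control 3 and knockout 1, and in 40 the lowest is the one labelled control 2.

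In 41 of the 50 genes the 3 highest libraries were those labelled control 1, control 3 and knockout 1. The other 9 were Tpm1, Tpm3, Nebl, Myoz1, Myoz3, Mybpc2, Cryab, Xirp1 and Xirp2. The lowest library was the one labelled control 2 in 40 genes. Of the 50, 49 passed the minimum of a mean of 1 scaled read over the 6 libraries and were tested among 20344 features, while Myoz3 did not pass it.

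No gene of the set differed between the groups beyond the spread of the libraries. By limma on log2(scaled reads + 1), 0 of the 49 genes passed an adjusted p of 0.05, as did 0.0% of all features tested, and every adjusted p in the set was 1.0. At an unadjusted p under 0.05 the count was again 0 of 49, against 1.36% of all features. The median log2 fold change, knockout over control, was 0.12 in the set (31 genes above 0 and 18 below) and 0.03 over all features. It was -1.86 without the library labelled control 2 and 1.19 without control 1, and -0.41 by DESeq2 and -0.37 by edgeR, so its sign depended on the library left out and on the tool. For 0 of the 49 genes did the 3 libraries of one group all lie above those of the other, which 4.76% of all features showed. edgeR and DESeq2 on whole reads, each without a block, called 0 of the 46 and 50 genes they tested and had 0 at an unadjusted p under 0.05.

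Libraries that share a replicate number deviated together from their group means, so the differences within each number were also taken. With the number as a block, limma called 0 of the 49 genes at an adjusted p of 0.05 (0.0% of all features). At an unadjusted p under 0.05 it then had 4 of 49 (8.16%) against 4.59% of all features, with Xirp2 higher and Smyd1, Mybpc2 and Tnnt1 lower in the libraries labelled knockout. Xirp2 was the 1 gene higher in the knockout library of all 3 numbers (2.04%, against 12.2% of all features). Mybpc2, Tnnt1 and Tpm1 were lower in all 3 (6.12%, against 12.1%). The last 2 shares lie under the background, and the 8.16% is 4 genes. By DESeq2 with the block, 5 of 50 genes had an unadjusted p under 0.05, against 714 of 27366 features. By edgeR with the block it was 1 of 46, against 609 of 14214. Limma with the block and without both libraries of number 1, 2 or 3 had 5, 4 and 13 of 49. Over all 20344 features these counts were 1289, 1942 and 292. No gene of the set passed an adjusted p of 0.05 in these fits (smallest 0.21, Xirp2 by DESeq2).

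The larger differences lay between replicate numbers, and the knockout and control libraries of numbers 2 and 3 differed in opposite directions. The median difference, knockout minus control on the log2(scaled reads + 1) scale, was 0.04 in number 1, 2.05 in number 2 and -1.87 in number 3, against 0.02, 0.00 and 0.01 over all features. Both libraries of number 1 lay above both of number 2 in 45 of 49 genes (91.8%, against 26.6% of all features), the exceptions being Mybpc2, Nebl, Tpm1 and Tpm3. The library labelled knockout 2 was at least 2-fold above that labelled control 2 in 31 of 49 (63.3%, against 15.4%). The library labelled knockout 3 was at least 2-fold below that labelled control 3 in 37 of 49 (75.5%, against 10.5%). In number 1 a 2-fold difference either way was found in 5 of 49 (10.2%, against 19.4%), namely Mybpc2, Myot, Neb, Ttn and Xirp2. Each of these 3 counts compares 1 library with 1 other and has no replicate check. In the library labelled control 2 several genes had few reads, such as 5 each of Tcap, Csrp3, Smpx and Unc45b.

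**Figure D2:**
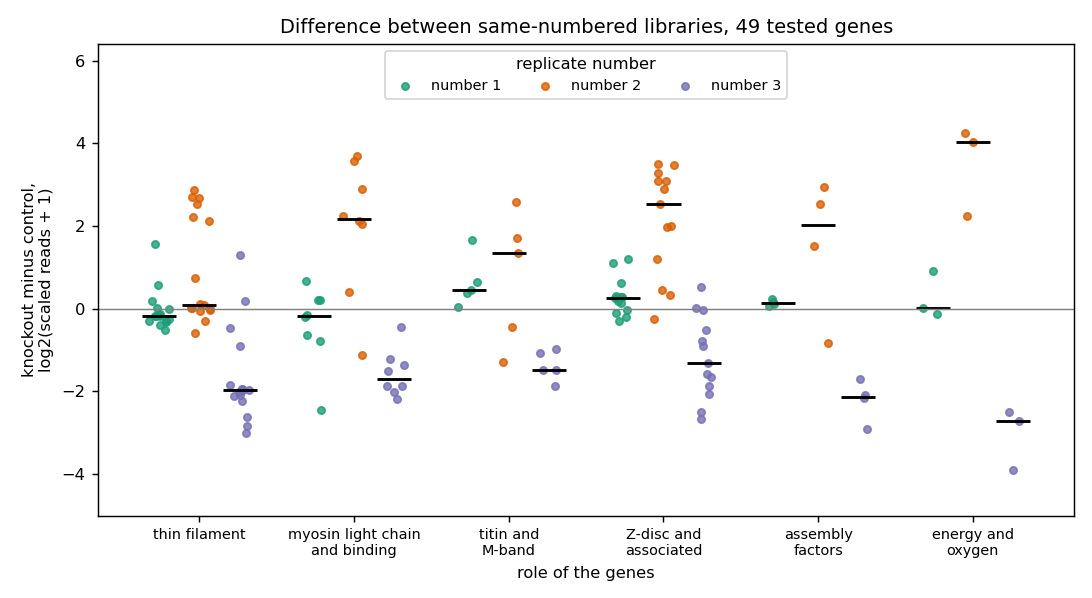
Difference between the knockout and the control library of the same replicate number, log2(scaled reads + 1), for the 49 tested genes by role. Points are genes, colours are replicate numbers and black bars are medians, which lie from -0.18 to 0.45 in number 1 over the 6 roles, from 0.09 to 4.02 in number 2 and from -2.71 to -1.32 in number 3.

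Acta1 had the highest FPKM of the thin-filament genes in the libraries labelled control 1, control 3 and knockout 1 (6270, 2150 and 5500). Acta1, skeletal α-actin (ENSMUSG00000031972, chr8:123891769-123894751, GRCm38), had 169682, 804 and 54467 scaled reads under the control label, and 149412, 5220 and 14254 under the knockout label. Its log2 fold change was 0.19 (SE 2.45, 95% interval -6.09 to 6.47). Actc1, cardiac α-actin, which embryonic skeletal muscle also makes (ENSMUSG00000068614, chr2:114047282-114053548), had 53650, 301 and 45067 against 45042, 1735 and 5620 scaled reads. For Actc1 the log2 fold change was -0.24 (SE 2.5). Both genes were lowest in the library labelled control 2, by 211-fold and 178-fold against the highest library, and in both the groups overlapped over their whole range. Their coding sequences are close copies, so reads could be exchanged between them or dropped in counting.

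Among the troponins, the slow and embryonic forms were the main ones for troponin C and troponin I, while troponin T came from all 3 of its genes. Tnnc1, slow and cardiac troponin C (ENSMUSG00000091898, chr14:31208312-31211729), had 27467, 176 and 17503 scaled reads under the control label and 22112, 1128 and 4352 under the knockout label. Tnnc2, the fast form, had 3.3, 0 and 2.6 against 3.4, 0 and 0, which is at most 3 reads in any library. A count of 0 allows up to 3 reads, so no fold is given here for Tnnc2. Its folds and ratios under other settings, given further below, rest on these same few reads and carry no weight. Tnnc2 also overlaps Ube2c on the other strand. Tnnc1 made up 100% of the pair's FPKM to the precision given, though in the library labelled control 2 the count of 0 for Tnnc2 allows a share of Tnnc1 down to 98%.

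Tnni1, slow troponin I, had 34938, 510 and 17988 scaled reads under the control label and 31966, 2238 and 4613 under the knockout label (log2 fold change 0.01, SE 1.97). Tnni2, fast troponin I, had 2376, 135 and 2380 against 1926, 143 and 331 (-1.02, SE 1.55). Tnni1 made up 85.9%, 61.1% and 75.9% of the FPKM of the pair under the control label and 87.3%, 86.7% and 85.3% under the knockout label. The log2 ratio was 3.88, 1.91 and 2.92 against 4.05, 3.96 and 3.80, a difference of 1.04 that had the same sign in all 3 numbers (0.18, 2.05 and 0.88). The exact two-sided permutation p was 0.2 (n = 3 and 3), and the groups overlapped because control 1 lay above knockout 3. With 3 against 3 libraries this test cannot go below 0.1, and the exact sign-flip test within numbers, at 0.25 here, cannot go below 0.25.

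Troponin T was spread over 3 genes. Tnnt1, the slow form, had 12783, 1001 and 11141 scaled reads under the control label and 8925, 970 and 2380 under the knockout label. It was lower in the knockout library of each number, by 0.52, 0.05 and 2.23 on the log2 scale, with a log2 fold change of -0.93 (SE 1.30, or 0.39 with the block, blocked limma adjusted p = 0.92). Tnnt2, the embryonic and cardiac form, had 29756, 2405 and 17666 against 22505, 4007 and 4118 (-0.59, SE 1.16). Tnnt3, the fast form, had 17638, 811 and 11370 against 15543, 822 and 1867 (-0.92, SE 1.66). Per length, Tnnt1 made up 36.9% to 56.5% of the sum of Tnnt1 and Tnnt3. Between their lowest and highest library the 3 genes spanned 12.4-fold to 21.7-fold, less than the 156-fold of Tnnc1.

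The tropomyosins split into 1 gene that followed the other sarcomere genes and a pair that did not. Tpm2, β-tropomyosin, had 36076, 5172 and 29298 scaled reads under the control label and 31853, 5574 and 6872 under the knockout label (log2 fold change -0.72, SE 0.97). Tpm1, α-tropomyosin, had 28889, 31425 and 41780 against 23580, 30963 and 22356, so that the library labelled control 2 was among its 3 highest. Tpm3, slow tropomyosin, was likewise even, with 9260, 12826 and 8129 against 8374, 13086 and 9188. The ratio of highest to lowest library was 1.87 for Tpm1 and 1.61 for Tpm3, the smallest in the set where every library had reads. Both genes also make tropomyosins of the non-muscle cytoskeleton, which gene-level counts do not separate.

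Tpm1 had the smallest unadjusted p of the 49 genes by limma (0.182, adjusted p = 1.0), with a log2 fold change of -0.41 (SE 0.28, 95% interval -1.04 to 0.23). Its groups were 34030 ± 6829 scaled reads (SD, n = 3) in control and 25630 ± 4656 in knockout. They overlapped, since knockout 2 lay above control 1. Tpm3 made up 28.1%, 33.2% and 19.2% of the FPKM of Tpm3 and Tpm1 under the control label and 30.2%, 34.0% and 33.3% under the knockout label. The log2 ratio was 0.43 higher in the knockout group (exact permutation p = 0.2), again with the same sign in all 3 numbers (0.15, 0.05 and 1.08).

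Nebulin stabilises the thin filament and the leiomodins nucleate it. Neb, the giant protein that runs along it (ENSMUSG00000026950, chr2:52136647-52378474), had 8376, 1594 and 4002 scaled reads under the control label and 24927, 1298 and 2879 under the knockout label. The library labelled knockout 1 was far above all the others, while numbers 2 and 3 were lower in knockout. Nebl, its smaller relative best known from heart and non-muscle cells, was low throughout (36.6 to 160 scaled reads), with a log2 fold change of 0.43 (SE 0.55). Lmod2 and Lmod3, which nucleate actin filaments, spanned 254-fold and 247-fold between the lowest library, labelled control 2, and the highest, labelled knockout 1. For Lmod3 the values were 4598, 18.6 and 2622 against 4614, 142 and 669.

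The embryonic and fast light chains were abundant in the high libraries and scarce in the low ones. Myl1, the fast essential light chain (chr1:66924295-66945404), had 30446, 97.9 and 27088 scaled reads under the control label and 35168, 1178 and 5989 under the knockout label (log2 fold change 0.54, SE 2.74). Myl4, the embryonic and atrial one, had 32576, 118 and 24036 against 29138, 1537 and 6574 (0.55, SE 2.58). Mylpf, the fast regulatory light chain (ENSMUSG00000030672, chr7:127208890-127214298), had 55658, 569 and 38765 against 48804, 2475 and 9649 (-0.03, SE 2.19). All 3 were lowest in the library labelled control 2, next in knockout 2, and high in both libraries of number 1.

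The ventricular and slow light chains were nearly missing from the same libraries. Myl2 had 1.2 to 37.8 scaled reads and Myl3 0 to 14.4, with 0 reads of Myl3 in the library labelled control 2, a count that allows up to 3. Myl3 made up 0.0218% to 0.3% of the FPKM of Myl3 and Myl1 in the other 5 libraries, while in control 2, with 84 reads of Myl1, its count of 0 allows a share of up to 3.32%. Myl2 made up at most 0.176% of the FPKM of Myl2 and Mylpf. Myl4, by contrast, made up 21.5% to 30.1% of the FPKM of Myl4 and Myl1. Its log2 ratio to Myl1 differed by 0.02 between the groups (exact permutation p = 0.9), with -0.37, 0.12 and 0.31 in the 3 numbers. The FPKM divides Myl4 by a longest transcript of 3273 bases, and with the principal transcript of 943 bases its share was 41.4% to 52.6%.

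Myosin-binding protein C came almost entirely from its slow gene. Mybpc1 had 3855, 12.8 and 1163 scaled reads under the control label and 6176, 56.3 and 319 under the knockout label (log2 fold change 0.29, SE 2.82). Mybpc2, the fast form, had 4.4, 1.2 and 26.4 against 0, 0 and 10.9, and was lower in the knockout library of every number. Its log2 fold change of -1.59 (SE 1.25, or 0.66 with the block) rests on at most 31 reads in any library. Mybpc1 made up 91.0% to 100% of the FPKM of the pair, where the 91.0% of control 2 rests on 11 reads of Mybpc1 and 1 of Mybpc2. Mybph, a related protein of the thick filament, ranged from 48.9 scaled reads in the library labelled control 2 to 15326 in that labelled knockout 1.

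Titin had its highest level in the library labelled knockout 1. Ttn (ENSMUSG00000051747, chr2:76703980-76982547) had 22842, 2319 and 4679 scaled reads under the control label and 71958, 947 and 2374 under the knockout label. The difference was 1.66 in number 1 and -1.29 and -0.98 in numbers 2 and 3 on the log2 scale. Thus Ttn and Neb, unlike most of the set, were lower in knockout 2 than in control 2. The authors' deposited table gives no p-value for Ttn and an adjusted p of 0.9998 for each of the other 49 genes.

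The myomesins of the M-band were high and low in the same libraries as most of the set. Myom1, a cross-linker of the M-band, had 2153, 33.8 and 1046 scaled reads under the control label and 3375, 87.6 and 286 under the knockout label. Myom2, typical of fast fibres, had 7610, 26.8 and 3191 against 9940, 165 and 1152 (log2 fold change 0.50, SE 2.71). Myom3, of slow fibres, had 5073, 68.8 and 1843 against 6929, 226 and 664 (0.23, SE 2.11). Myom3 made up 70.0% of the FPKM of Myom3 and Myom2 in the library labelled control 2 and 55.5% in knockout 2, and 34.4% to 38.8% in the other 4. Obsl1, an obscurin-like protein, was lower in both libraries of number 2 (2079 and 1538) than in control 3 (4106) but reached 1954 in knockout 3, with 13320 and 13726 in number 1.

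Over the Z-disc genes the median difference was 0.27, 2.53 and -1.32 within numbers 1, 2 and 3, so its sign was not the same in all. Their median log2 fold change was 0.29, with 11 above 0 and 2 below among 13 tested. Over all features it was 0.03, with 10789 above 0 and 9555 below. Actn2, the α-actinin of all striated muscle (ENSMUSG00000052374, chr13:12269426-12340760), had 8241, 55.9 and 2877 scaled reads under the control label and 10262, 222 and 785 under the knockout label (0.14, SE 2.42). Actn3, its fast-fibre relative, had 8393, 770 and 7389 against 9187, 1049 and 2960 (-0.25, SE 1.22). The low libraries therefore had relatively more Actn3: Actn2 made up 48.5% and 51.7% of the FPKM of the pair in number 1, 6.51% and 16.9% in number 2, and 27.2% and 20.3% in number 3. The log2 ratio differed by 0.39 between the groups (exact permutation p = 0.9).

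Among further Z-disc genes, Tcap, Ldb3, Csrp3 and Smpx were highest in the same 3 libraries as most of the set, whereas Myoz1 and Myoz3 were not. Tcap, which caps the end of titin, had 1257, 5.8 and 1185 scaled reads under the control label and 1087, 57.2 and 211 under the knockout label. Ldb3, which binds α-actinin, ranged from 39.6 in the library labelled control 2 to 8263 in knockout 1, Csrp3, the muscle LIM protein, from 5.8 to 1964, and Smpx, a small muscle protein, from 5.8 to 2342. Myozenins were scarce: Myoz2, the slow form, had 248, 0 and 256 scaled reads against 300, 10.1 and 81.2, Myoz1, a fast form, had 7.0 to 33.1, and Myoz3, also fast, had 1.1, 0 and 4.3 against 0 in all 3 libraries labelled knockout. Myot, myotilin, had 63.3, 0 and 69.9 against 137, 6.5 and 36.8 (log2 fold change 1.03, SE 1.89).

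Desmin varied less between libraries than the actins and troponin T. Des, the intermediate filament that links Z-discs and is already made in dividing myoblasts, had 76325, 14090 and 39596 scaled reads under the control label and 70905, 17686 and 23036 under the knockout label, a 5.42-fold span. Cryab, a small heat shock protein that binds desmin, had 17730, 1452 and 7321 against 14501, 5794 and 7462 (log2 fold change 0.58, SE 0.92), a 12.2-fold span. Cryab overlaps Hspb2 on the other strand, and whether reads were counted by strand is not stated. The same holds for Myl2 with Ccdc63, Myl3 with Pth1r, Mybph with Adora1, Mb with Apol6 and Myom1 with Myl12a.

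The Xin-repeat genes, whose products bind actin at junctions and Z-discs, went different ways. Xirp1 had 10438, 1966 and 1244 scaled reads under the control label and 12717, 1645 and 1221 under the knockout label, so that the library labelled control 3 lay below both of number 2. Xirp2 (ENSMUSG00000027022, chr2:67446002-67526614) had 1599, 11.7 and 220 against 3704, 123 and 316. It was higher in the knockout library of all 3 numbers, by 1.21, 3.29 and 0.52 on the log2 scale, with a log2 fold change of 1.67 (SE 2.23, or 0.49 with the block, blocked limma adjusted p = 0.92). The groups overlapped, and without the library labelled control 2 the fold change was -0.18. That fit is unpaired and keeps knockout 2. With the block and without both libraries of number 2 the fold change was 0.87.

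Of the assembly factors, Smyd1 was more even than the rest. Smyd1, a muscle methyltransferase that acts with the myosin chaperones, had 5514, 1196 and 3479 scaled reads under the control label and 6204, 676 and 1073 under the knockout label (log2 fold change -0.78, SE 0.96, or 0.32 with the block). Unc45b, the chaperone of muscle myosin, had 1054, 5.8 and 1093 against 1145, 51.7 and 146. Klhl40 and Klhl41, which stabilise nebulin and the leiomodins, spanned 32.8-fold and 128-fold. Klhl41 had 4707, 43.1 and 3805 scaled reads against 5512, 255 and 848.

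Genes of energy and oxygen supply were highest in the same 3 libraries as most of the set. Ckm, muscle creatine kinase, had 571, 1.2 and 1076 scaled reads under the control label and 524, 34.1 and 71.1 under the knockout label. Mb, myoglobin, had 7618, 17.5 and 5564 against 7654, 351 and 981. Ckmt2, the mitochondrial creatine kinase, stayed at 0 to 65.6. In these 3 genes the median difference was 0.01 in number 1, 4.02 in number 2 and -2.71 in number 3. The value of Ckm in the library labelled control 2 is 1 read.

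Neither the embryonic or slow forms nor the adult fast forms held a gene called between the groups. Over the 12 embryonic or slow genes the median log2 fold change was 0.02 (8 above 0 and 4 below) and over the 11 tested of 12 fast genes -0.25 (4 above and 7 below), against 0.03 over all features, with 0 genes called in either class by limma. Within numbers 1, 2 and 3 the medians were -0.21, 2.09 and -1.87 for the embryonic or slow class and -0.18, 0.45 and -1.83 for the fast class. By these medians the embryonic or slow genes of number 2 stood further above their control library than the fast ones, a comparison of 1 library with 1 other that was not tested. The fast median there includes Tnnc2 (0 reads in both libraries) and Mybpc2 (1 read in control 2, 0 in knockout 2). Over all libraries the class medians differed by 0.27, embryonic or slow minus fast. This difference was 0.35 with no filter, 0.045 with a minimum mean of 10, -0.047 with DESeq2 and -0.17 with edgeR, the last 2 without the block. With the block the difference was 0.33 with DESeq2 and 0.042 with edgeR. It was -0.046 with limma, the block and neither library of number 2. Its sign thus depended on the tool, the block and the libraries left out. Summed over each class, the embryonic or slow genes made up 33.7%, 36.7% and 38.6% of the FPKM of both classes under the control label and 31.7%, 37.4% and 35.6% under the knockout label. The share thus stayed within 31.7% to 38.6% while the summed FPKM of the embryonic or slow class went from 399 in the library labelled control 2 to 6825 in control 1. In control 2, however, most of both sums came from the tropomyosins that did not follow the set. There Tpm3 had an FPKM of 276 of the 399, and Tpm1 had 556 of the 688 of the fast class. The share without this pair was not taken, so the steady share does not describe the other genes.

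**Figure D3:**
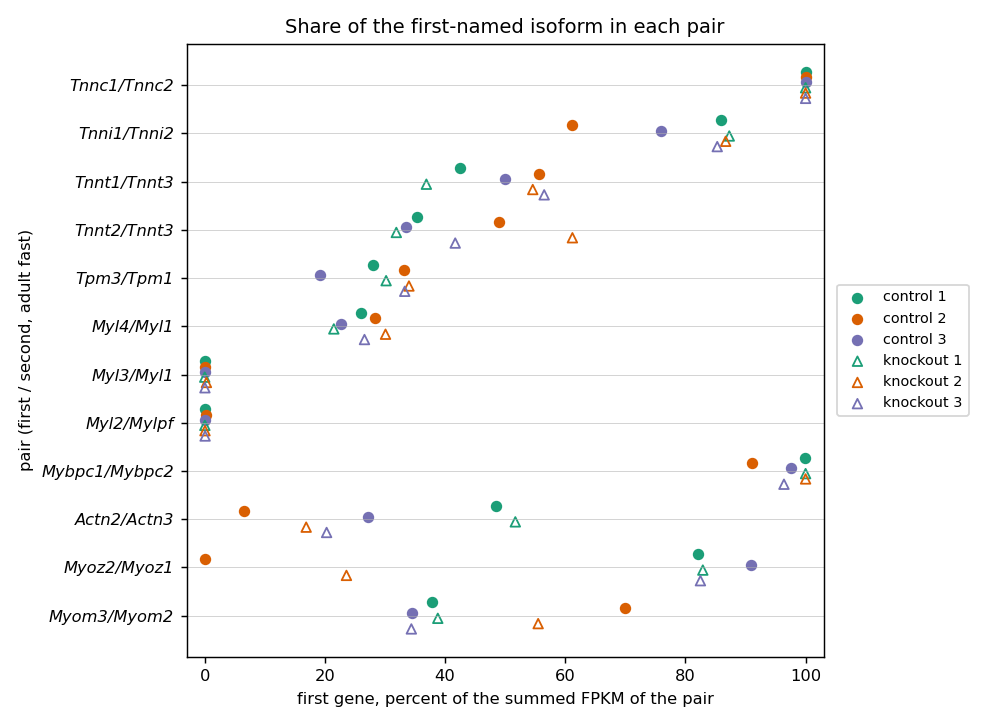
Percent of the summed FPKM of each of 12 isoform pairs that came from the first-named gene (embryonic, slow or, for Actn2, common to all striated muscle), per library. Circles are libraries labelled control, triangles those labelled knockout, and colours are replicate numbers. Tnnc1 and Mybpc1 make up 91.0% to 100% of their pairs and Myl2 and Myl3 at most 0.3%, with genes of 0 reads plotted as 0 (for Myl3 in control 2 that count allows up to 3.32%).

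Over the 13 pairs of isoforms, the class that prevailed depended on the protein. By FPKM the slow or embryonic gene gave most of troponin C, troponin I and myosin-binding protein C, the fast gene most of the regulatory light chain, and troponin T was mixed. The groups overlapped in all 13 log2 ratios, 8 of which were higher and 5 lower in the knockout group. Exact permutation p-values ran from 0.2 to 1.0, with a smallest adjusted p of 0.975 over the 13 pairs. Pairs with 1 sign in all numbers included Tnni1/Tnni2 and Tpm3/Tpm1. Pairs that took their lowest share of the first gene in the library labelled control 2 included Tnni1/Tnni2, Mybpc1/Mybpc2 and Actn2/Actn3, while Myom3/Myom2 took its highest there (70.0%). For Mybpc1/Mybpc2 the share in control 2 rests on 11 reads and 1 read. In knockout 2 the 0 reads of Mybpc2 allow a share of Mybpc1 down to 94.9%. Myl3 and Myoz2 had 0 reads in control 2, which allows up to 3.32% of Myl3/Myl1 and 21.1% of Myoz2/Myoz1. The share depends on the length used: with principal transcripts the median over the 6 libraries went to 61.8% for Tnnt2/Tnnt3, 24.5% for Tpm3/Tpm1 and 48.0% for Myl4/Myl1, a setting chosen after the data were seen.

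Differences within a number also went with transcript length. In number 1 the Spearman correlation between a gene's length and its difference was 0.63 over 46 of the genes with a mean of at least 10 scaled reads and 0.50 over all 14280 such genes. It was -0.27 and -0.24 in number 2 and 0.46 and 0.29 in number 3. Genes within a library are not independent, so these are descriptions. In number 1 the median difference over all genes went along the length classes from -0.39 up to 1 kb to 0.95 above 16 kb, and that of the sarcomere genes from -0.30 (5 genes) to 1.61 (Neb and Ttn). The high values of Ttn, Neb and Xirp2 in the library labelled knockout 1 thus stand beside a shift of long transcripts in all genes, whose part in them was not tested.

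**Figure D4:**
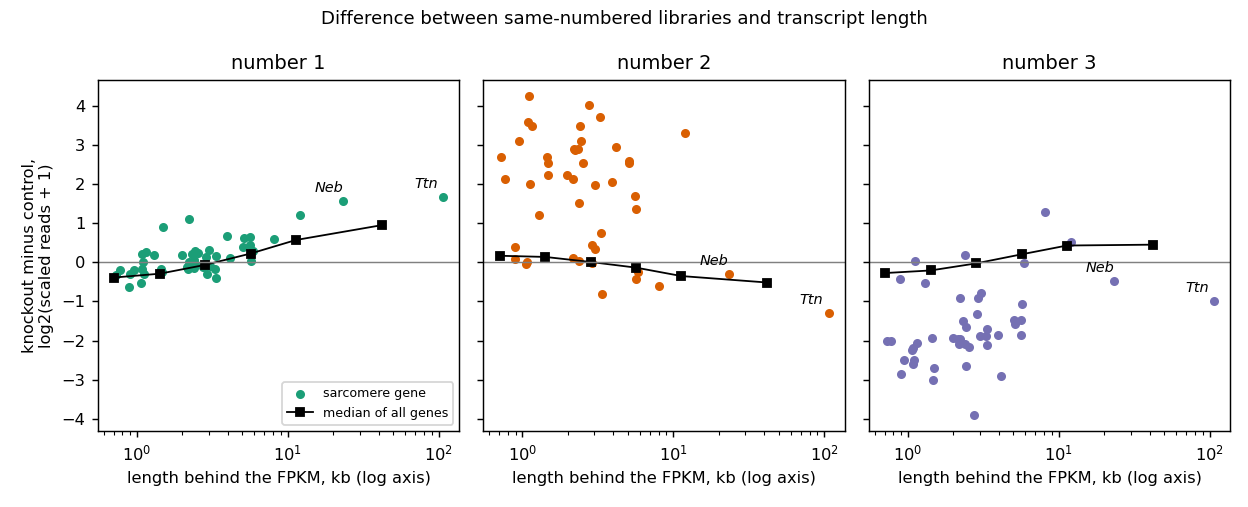
Difference between same-numbered libraries, log2(scaled reads + 1), against the transcript length behind the authors' FPKM (log axis), for 46 sarcomere genes (coloured points). Black squares are medians of all genes in 6 length classes, which go from -0.39 to 0.95 in number 1, from 0.17 to -0.52 in number 2 and from -0.28 to 0.45 in number 3.

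Further sarcomere genes did not pass the adjusted threshold either. Of 40 others tested, which include myosin heavy chains and Z-disc adaptors, 20 lay above and 20 below 0, with a median log2 fold change of 0.00 and 0 called by limma. Their median differences were 0.25, 0.54 and -0.95 in numbers 1, 2 and 3. Kbtbd13, a muscle Kelch protein, had the smallest p among them, with 0 reads in all 3 control libraries and 5.7, 1.8 and 1.7 scaled reads in those labelled knockout (unadjusted p = 0.0252, limma adjusted p = 1.0), at or near the 3 reads that a count of 0 allows. Pdlim5, a Z-disc PDZ and LIM protein, had 2108, 1657 and 1619 against 2326, 2292 and 2604 (log2 fold change 0.43, SE 0.23).

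The non-sarcomeric counterparts, such as β-actin and non-muscle myosin, were highest in sum in number 2. Their 12 genes summed to 173813, 244799 and 123581 scaled reads under the control label and 153213, 238917 and 150978 under the knockout label. Both libraries of number 2 were thus the highest, where the sarcomere genes took their smallest shares of reads, while the other 4 libraries did not run opposite to the sarcomere genes. Myh9, a non-muscle myosin heavy chain, had its highest value, 27237, in the library labelled knockout 1. None of the 12 passed the limma test (median log2 fold change 0.08), Tmod3 (0.30, SE 0.30) and Actn1 (0.25, SE 0.28) having the smallest p. Among 11 myogenic regulators 1 lay above 0 and 10 below, with 0 called, against 10789 above and 9555 below over all features. Within numbers 1, 2 and 3 the median difference of these regulators was 0.31, -0.07 and -1.19, so its sign was not the same in all. The regulators with the smallest p were Myod1 (-0.48, SE 0.27) and Cdh15, a cadherin of satellite cells (-0.49, SE 0.43).

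Markers of other cell types were not even across the libraries. Of 10 cardiomyocyte markers, Hcn4, Mybpc3, Myl7, Nkx2-5 and Nppa had at most 3 reads in every library and the 10 summed to 33.8 to 52.2 scaled reads in control and 60.5 to 98.8 in knockout, while Actc1, Tnnc1, Tnnt2 and Myl4, genes the heart also uses, reached 22112 or more in both libraries of number 1. The 10 fibroblast markers summed to 6252 to 16995 in control and 9405 to 17454 in knockout (9 above 0), with Pi16 at or under 3 reads in every library. Sums were 417 to 689 against 405 to 1609 for 8 endothelial markers (8 above 0), 150 to 302 against 97.0 to 917 for 8 macrophage markers (8 above 0), and 541 to 563 against 551 to 1604 for 7 Schwann cell markers (6 above 0). In the last 3 lists the libraries labelled knockout 2 and knockout 3 were the 2 highest, and 0 markers were called by limma. The 8 smooth-muscle markers, which include Des, summed to 24528 to 103888 against 33675 to 88409. The part of these cells in the values of the sarcomere genes was not tested.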

How the data were processed

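RNA-seq of 6 libraries was used. Per the file headers, the main deposited table holds a normalized signal per gene and library (reads divided by a size factor), FPKM, and for the authors' own comparison a log2 fold change with its p-value, raw and adjusted. HISAT2 2.0.5, HTSeq and Trimmomatic, and edgeR 3.18.1 beside DESeq2 1.16.1, appear without roles in the submitters' processing notes. The sources used here give neither annotation nor strand setting. After 36 lines of overflowing annotation text were dropped, 27366 features remained, 273 of them unannotated loci. Whole reads were recovered from the scaled values (100.0% whole within 0.01), and 480 of 480 genes shared with the authors' deposited count table had equal counts. Another 6 per-sample columns were not used. All 50 genes have the coordinates of the GENCODE annotation of GRCm38, and the FPKM lengths were read back from the FPKM.

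Genes, lists and tests were chosen with earlier results of these data known. The test planned for normalized values was limma 3.58.1 (trend, robust) on log2(scaled reads + 1), over 20344 features whose mean reached 1, two-sided, calling a feature below 0.05 after Benjamini-Hochberg adjustment. It was also run on simulated counts, which had no difference between replicate numbers. That run therefore does not show how the test performs on the spread of these libraries. The named genes are those of the 13 isoform pairs, the 6 further genes of the set with the smallest p, Islr, Myog, Myod1, Pax7 and the 2 genes with the smallest p of each further list. Isoform ratios, (scaled reads + 1)/(scaled reads + 1) on the log2 scale, were compared by exact permutation. The values of 1 of the 13 ratios are not reported here. Alternatives were edgeR 4.0.16 and DESeq2 1.42.0 on the recovered reads, TMM and library-size scaling, a pseudocount of 0.1, no filter or a minimum mean of 10, a replicate block, and leaving out libraries. After centring each group, libraries of the same number correlated at 0.689, 0.633 and 0.625 (14280 genes, minimum mean of 10), so the numbers were taken to pair the libraries. The pairing comes from the data, not from the labels. A count of 0 allows up to 3 reads, for counting error only.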

Additional observations from a re-analysis of the deposited data

How the results depend on the processing

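No alternative called a gene of the set, and 0 features were called in all fits but DESeq2 with the replicate block, which called 7 features, none of them in the set. Since no fold change had passed a test, a change of sign is a move across 0 within the spread, and its cause was not tested. With the replicate block the limma fold changes were unchanged by construction (median 0.12), and unadjusted calls over all features went from 276 to 933. For isoform ratios, 0 of 13 pairs had groups that do not overlap, 3 had the same sign in all paired numbers, and leaving out 1 library gave 0 to 1. Of 39 named genes, 14 kept their direction in every alternative that tested them. They were Actn1, Cdh15, Islr, Kbtbd13, Mybpc2, Myod1, Pdlim5, Smyd1, Tmod3, Tnni2, Tnnt1, Tnnt3, Tpm1 and Tpm2. Kbtbd13 and Mybpc2 were not tested by edgeR, with or without the block, nor with the higher minimum mean. Their direction under those settings is therefore not known. The median log2 fold change of the set ran from -1.86 without the library labelled control 2 to 1.19 without control 1. It was -0.41 with DESeq2 and -0.37 with edgeR without the block, and 0.048 and -0.011 with it. 

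Log2 fold changes that crossed 0 were, with DESeq2, Acta1 -0.413, Tnnc1 -0.71, Tnni1 -0.461, Myl4 -0.607, Myl1 -0.445, Myl3 -0.734 and Myoz2 -0.364, with edgeR Acta1 -0.413, Tnnc1 -0.709, Tnni1 -0.46, Myl4 -0.606, Myl1 -0.442 and Myoz2 -0.366, with the replicate block in DESeq2 Tnni1 -0.01 and Myl3 -0.0882 and in edgeR Tnni1 -0.0157 and Myoz2 -0.143. Library-size scaling gave Mylpf 0.0221. With the block and without both libraries of number 1, Mylpf 0.0569. Without those of number 2 they were Acta1 -1.06, Tnnc1 -1.16, Tnni1 -1.05, Myl4 -1.02, Myl1 -0.985, Myl3 -1.07, Mybpc1 -0.592, Actn2 -0.778, Myoz2 -0.684, Myoz1 -0.165, Myom3 -0.511, Myom2 -0.542, Cryab -0.131 and Pax7 0.0144, and without those of number 3 Actc1 1.14, Tnnc2 0.0148, Tnnt2 0.167, Tpm3 -0.0581, Mylpf 0.965, Actn3 0.288, Nebl -0.0076 and Myog 1.02. The isoform ratio Myl3/Myl1 was 0.40 with a pseudocount of 0.1. Leaving out each library in turn, fold changes that crossed 0 ran as follows: Actc1 -2.69 to 1.04, Acta1 -2.11 to 1.75, Tnnc1 -2.2 to 1.44, Tnni1 -1.86 to 1.19, Tnnt2 -1.67 to 0.141, Tpm3 -0.172 to 0.208, Myl4 -2.07 to 1.98, Myl1 -2.19 to 1.94, Myl3 -1.21 to 0.761, Myl2 -1.36 to 0.717, Mylpf -2.14 to 1.16, Mybpc1 -2.13 to 1.93, Actn2 -2.0 to 1.59, Actn3 -1.37 to 0.523, Myoz2 -1.96 to 2.05, Myoz1 -0.168 to 0.783, Myom3 -1.59 to 1.5, Myom2 -1.99 to 2.06, Nebl -0.056 to 0.991, Xirp2 -0.177 to 3.31, Cryab -0.413 to 1.39, Myot -0.995 to 2.12, Myog -2.52 to 0.824 and Pax7 -0.486 to 0.0869. Isoform ratios that did so ran as follows: Tnnc1/Tnnc2 -0.942 to 1.64, Tnnt1/Tnnt3 -0.218 to 0.357, Tnnt2/Tnnt3 -0.148 to 0.726, Myl4/Myl1 -0.131 to 0.196, Myl3/Myl1 -1.58 to 0.979, Myl2/Mylpf -0.931 to 0.778, Mybpc1/Mybpc2 -0.555 to 3.69, Actn2/Actn3 -0.635 to 1.23, Myoz2/Myoz1 -1.79 to 1.78 and Myom3/Myom2 -0.659 to 0.4. Fits that left out 1 library are unpaired and took the spread of the other libraries for both groups. Depth limits Tnnc2, Myl2, Myl3, Mybpc2, Myoz1 and Myoz3, with at most 34 reads in any library. Other genes had few reads in the library labelled control 2 alone. Myot, Myoz2 and Ckmt2 had 0 there, Ckm 1, and Tcap, Csrp3, Smpx and Unc45b 5 each. Lmod2 had 8, Xirp2 10 and Mybpc1 11. The differences of these genes in number 2 and their spans over the libraries rest on these few reads.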
